A study of Mus musculus with 4 samples.

Results

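Tut1 belongs to a family of 10 named genes, the non-canonical poly(A) and poly(U) polymerases Tut1, Tut4, Tut7, Tent2, Tent4a, Tent4b and Mtpap together with Lin28a, Lin28b and Dis3l2, which act with them. Members were taken by gene symbol, and the list was drawn up with earlier results of these data known. Of the 16449 genes in the count table, 9 were members, and 7 of those 9 were among the 5878 genes abundant enough to be tested. Lin28a was not analysed here. Dis3l2 and Lin28b had too few reads for the test and are given as counts.

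The libraries were long-read (Nanopore) poly(A)-enriched RNA of the dorsal and medial palliums, the embryonic forebrain wall that forms neocortex and hippocampus, from mouse embryos at E11.5. The labels put 2 libraries in a wild-type (WT) group and 2 in a Tut1 knockout group, called the knockout-labelled libraries below because the deletion could not be checked from these counts. The labels give no allele for WT. The study lists all 4 libraries as Tut1 f/f, homozygous for a Tut1 allele with loxP sites around exon 2, and those labelled knockout as also carrying Emx1-Cre, a knock-in that drives Cre recombinase in progenitors of the dorsal forebrain. Cells in the tissue in which Emx1 was never active, such as blood, vessel and meningeal cells, keep the floxed allele unrecombined. How many embryos went into a library is not stated, so the spread between libraries may be technical in part. With 2 libraries against 2, an exact permutation test of a single value cannot go below p = 0.333.

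Terminal nucleotidyltransferases add bases to RNA 3′ ends without a template. TUT1 adds uridines to U6 snRNA, the spliceosomal RNA. It has also been described, under the name Star-PAP, as a poly(A) polymerase of selected mRNAs, a role that is disputed. TUT4 and TUT7 uridylate mRNAs with short tails and, when LIN28 holds the precursor of a let-7 microRNA, add an oligo(U) tail to it. DIS3L2 is the 3′ to 5′ exonuclease that degrades such uridylated RNA. TENT2 and the TENT4 enzymes add adenosines in the cytoplasm and nucleus, and MTPAP does so in mitochondria.

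The deleted part of Tut1 is shown because it sets what a count of the gene can tell. Exon 2 of Tut1 lies at chr19:8955387-8955577 on the plus strand of GRCm38, within the coding sequence. It has 191 bases, 6.94% of the 2753-base transcript, so a read from a recombined allele would still be counted as Tut1 and a count over the whole gene does not check the deletion. In the first line exon 2 is in capitals, with 20 bases of exon 1 before it and 20 bases of exon 3 after it. In the second line exon 1 is joined to exon 3, and capitals mark the stop codon that the changed frame reaches after 81 codons, against 869 codons in the full protein.
Tut1 exon 2: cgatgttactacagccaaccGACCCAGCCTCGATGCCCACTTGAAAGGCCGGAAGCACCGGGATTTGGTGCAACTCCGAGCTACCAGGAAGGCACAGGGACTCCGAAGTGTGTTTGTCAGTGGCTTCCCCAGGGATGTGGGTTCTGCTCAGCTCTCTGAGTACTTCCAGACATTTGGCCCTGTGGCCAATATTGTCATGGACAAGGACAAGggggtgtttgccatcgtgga
Tut1 exon 1 joined to exon 3: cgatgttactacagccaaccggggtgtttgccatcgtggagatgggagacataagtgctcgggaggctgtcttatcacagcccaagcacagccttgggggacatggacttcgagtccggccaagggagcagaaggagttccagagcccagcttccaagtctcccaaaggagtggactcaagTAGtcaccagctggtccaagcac

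LIN28 and the TUTs meet on let-7, so 2 of its hairpins and 2 of its mature forms are shown from RefSeq (GRCm38.p6). Capitals mark GGAG, the letters LIN28 is known to bind, in a hairpin, and the seed, bases 2 to 8, in a mature form. GGAG was found in 9 of the 11 mouse let-7 hairpins and in 44.48% of all 1005 hairpins in that table, and Mirlet7b is an example without it. All 8 distinct mature 5p sequences had the seed GAGGUAG. Mature microRNAs have no poly(A) tail and were not measured in these libraries.
Mirlet7g hairpin, chr9:106178840-106178927, plus strand: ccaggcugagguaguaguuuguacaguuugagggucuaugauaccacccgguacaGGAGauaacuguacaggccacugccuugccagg
Mirlet7b hairpin, chr15:85707319-85707403, plus strand: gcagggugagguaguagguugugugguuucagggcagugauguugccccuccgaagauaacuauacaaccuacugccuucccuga
mmu-let-7a-5p: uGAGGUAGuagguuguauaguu
mmu-let-7g-5p: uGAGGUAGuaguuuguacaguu

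Tut1 (ENSMUSG00000071645, chr19:8953847-8966210, plus strand) was higher in knockout-labelled libraries. It had 6 and 11 reads in WT replicates 1 and 2, and 29 and 25 reads in knockout-labelled replicates 1 and 2. Scaled to CPM, the reads of a gene relative to the TMM-scaled size of its library, these were 18.2 and 30.7 in WT against 77.1 and 86.8. The groups did not overlap, and the means were 24.4 ± 8.9 and 81.9 ± 6.9 CPM (SD, n = 2 each). The log2 fold change was 1.71 ± 0.40 (SE), or 3.27-fold with a 95% interval from 1.86 to 5.74, with an adjusted p of 0.0113 in edgeR's quasi-likelihood test.

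The reads behind the Tut1 value were few. Exact Poisson 95% intervals of the counts, which cover counting error only, were 6.67 to 39.6 and 15.3 to 55.0 CPM in WT replicates 1 and 2. In knockout-labelled replicates 1 and 2 they were 51.6 to 111 and 56.2 to 128 CPM, so that of WT replicate 2 reached into that of knockout-labelled replicate 1. When 1 library is left out, its group has 1 library that is assumed to vary like the other group. On that assumption the call was lost without WT replicate 1 (adjusted p = 0.133), without knockout-labelled replicate 1 (adjusted p = 0.200) and without knockout-labelled replicate 2 (adjusted p = 0.160). With all 4 libraries it was lost in DESeq2 (adjusted p = 0.440), while the log2 fold change stayed between 1.39 and 2.13 in all alternatives.

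Of the 7 members tested, Tut1 was the 1 called, at an adjusted p below 0.05. Over all 5878 genes tested, 121 (2.06%) were called, 82 (1.4%) higher and 39 (0.663%) lower in knockout-labelled libraries. Non-overlapping groups were common, with 22.1% of tested genes higher in both knockout-labelled libraries than in either WT library and 20.8% lower. Among the 7 tested members, Tut1 was above and Tent2 was below in this sense, and the libraries of the other 5 overlapped. The plot of levels by library shows these values for the 9 members.

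**Figure D1:**
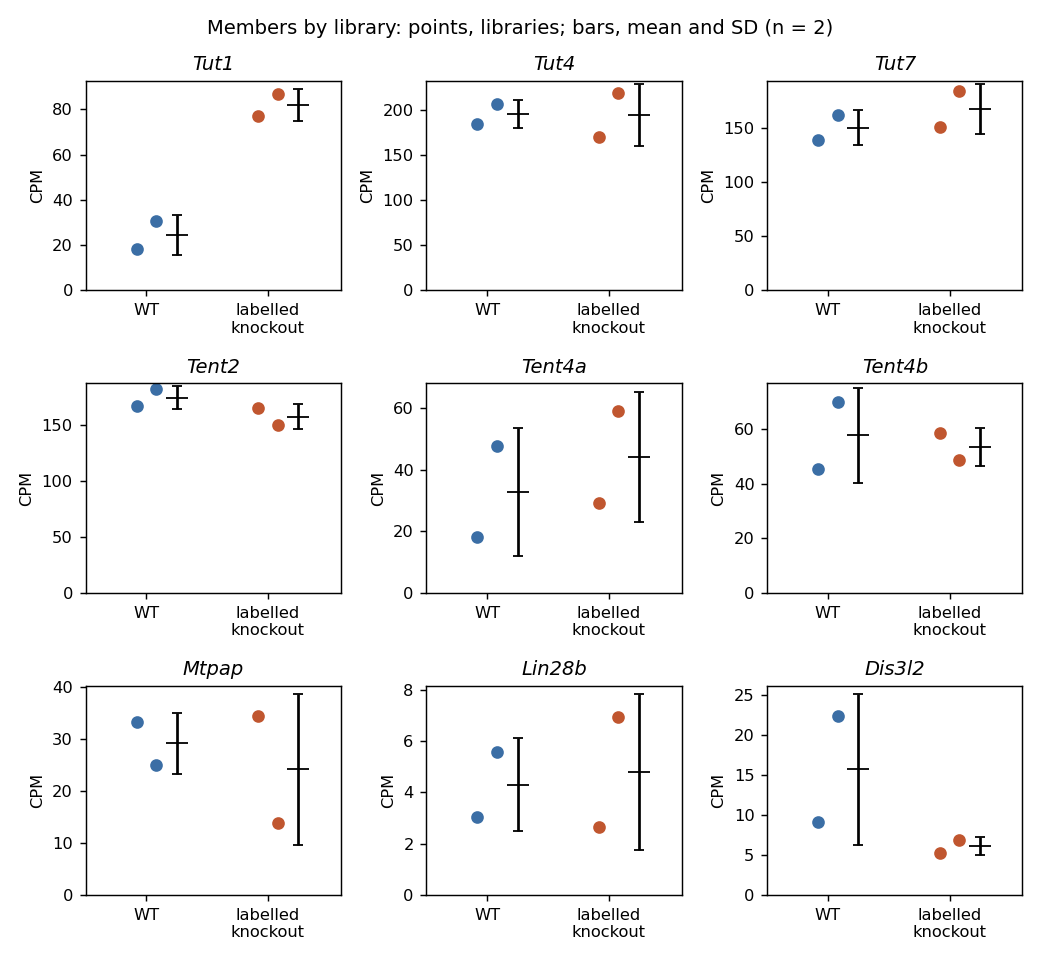
Level of each member in CPM (vertical axes, starting at 0) in the 2 WT libraries and the 2 knockout-labelled libraries, with each point a library and each bar the mean and SD (n = 2). Tut1 is the member whose knockout-labelled libraries, at 77.1 and 86.8 CPM, both lie above WT, and Tent2 and Dis3l2 are those where both lie below.

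Tut4 and Tut7, the cytoplasmic uridylyltransferases, did not pass the test. Tut4 (ENSMUSG00000034610, chr4:108459426-108559421, plus strand) had 61 and 74 reads in WT and 64 and 63 in knockout-labelled libraries. In CPM these were 185 and 207 against 170 and 219, and the groups overlapped. Its log2 fold change was -0.02 ± 0.23, with a 95% interval from 0.71- to 1.36-fold and an adjusted p of 0.979. Tut7 (ENSMUSG00000035248, chr13:59771561-59823147, minus strand) had 46 and 58 reads against 57 and 53, with a log2 fold change of 0.14 ± 0.25, an interval from 0.78- to 1.55-fold and an adjusted p of 0.873.

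Tent2 (ENSMUSG00000042167, chr13:93146282-93192385, minus strand), a cytoplasmic poly(A) polymerase, had 55 and 65 reads in WT and 62 and 43 in knockout-labelled libraries. In CPM these were 167 and 182 against 165 and 149, so both knockout-labelled libraries were the lower, by a log2 fold change of -0.14 ± 0.24 (adjusted p = 0.859). Its interval ran from 0.65- to 1.27-fold.

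Tent4a and Tent4b, the nuclear poly(A) polymerases that tag RNA for the exosome, had fewer reads and wider intervals. Tent4a (ENSMUSG00000034575) had 6 and 17 reads in WT and 11 and 17 in knockout-labelled libraries, and its interval reached from 0.67- to 2.43-fold around a log2 fold change of 0.35 ± 0.46 (adjusted p = 0.824). Tent4b (ENSMUSG00000036779) had 15 and 25 reads against 22 and 14, with a log2 fold change of -0.10 ± 0.37 (adjusted p = 0.948). At this depth the interval of Tent4a still held a 2-fold rise.

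Mtpap (ENSMUSG00000024234), the mitochondrial poly(A) polymerase, had 11 and 9 reads in WT and 13 and 4 in knockout-labelled libraries. Its log2 fold change was -0.19 ± 0.52, with an interval from 0.42- to 1.82-fold and an adjusted p of 0.918, and that interval still held a 2-fold fall. Among genes with a row in the table, Tent4a shares 165 exonic bases with Nsun2 and Tut7 shares 1299 with Etohd2, both on the opposite strand. Whether the counting used strand is not stated, so the counts of these 2 members are uncertain to that extent. Nsun2 had 10 and 6 reads in WT against 5 and 5, and Etohd2 had 2 and 1 against 4 and 3.

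The 2 members with too few reads were Dis3l2 and Lin28b. Dis3l2 (ENSMUSG00000053333) had 3 and 8 reads in WT and 2 and 2 in knockout-labelled libraries, so both of the latter were lower in CPM. With no filter on low counts, edgeR gave it an adjusted p of 0.729. Lin28b (ENSMUSG00000063804), which blocks let-7 maturation, had 1 and 2 reads in each group, a level at which a difference was not detectable.

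**Figure D2:**
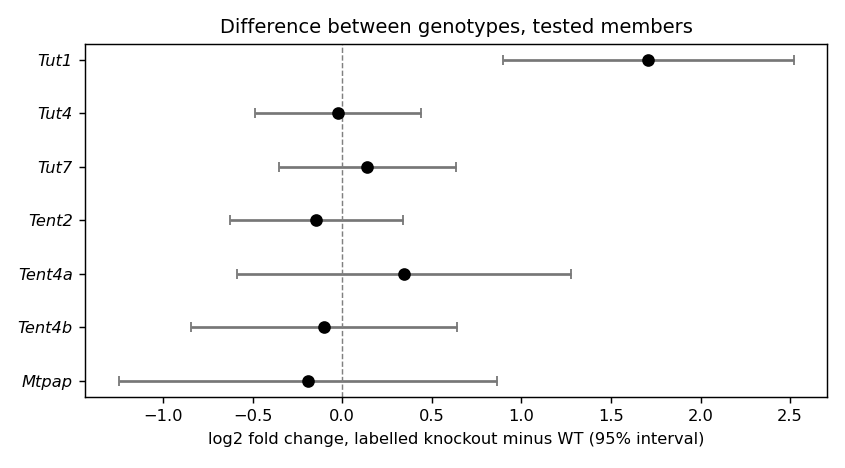
Log2 fold change, labelled knockout minus WT (horizontal axis), of the 7 tested members, with 95% intervals from the edgeR fit. The interval of Tut1, from 0.90 to 2.52, lies above 0, and the intervals of the other 6 all include 0.

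The intervals of 5 of the other 6 members lay wholly below that of Tut1, and that of Tent4a reached into it. Whether any member's difference was unlike that of Tut1 was not tested as a difference of differences. As a description within libraries, Tut1 held 2.94% and 4.09% of the reads of the 9 members in WT and 11.1% and 11.2% in knockout-labelled libraries. The exact Clopper-Pearson 95% intervals were 1.09 to 6.29% and 2.06 to 7.20% in WT, and 7.57 to 15.6% and 7.39 to 16.1% in knockout-labelled libraries. These intervals, too, cover counting error only and hold no spread between libraries. Per 100 Tut4 reads, there were 9.84 and 14.9 Tut1 reads in WT and 45.3 and 39.7 in knockout-labelled libraries. The same direction held per 100 Tut7 reads (13.0 and 18.97 against 50.9 and 47.2) and per 100 Tent2 reads (10.9 and 16.9 against 46.8 and 58.1). An exact permutation test of each of these gave p = 0.333, the smallest that 4 libraries allow. The summed level of the members other than Tut1 was 600 and 721 CPM in WT against 617 and 688 CPM.

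**Figure D3:**
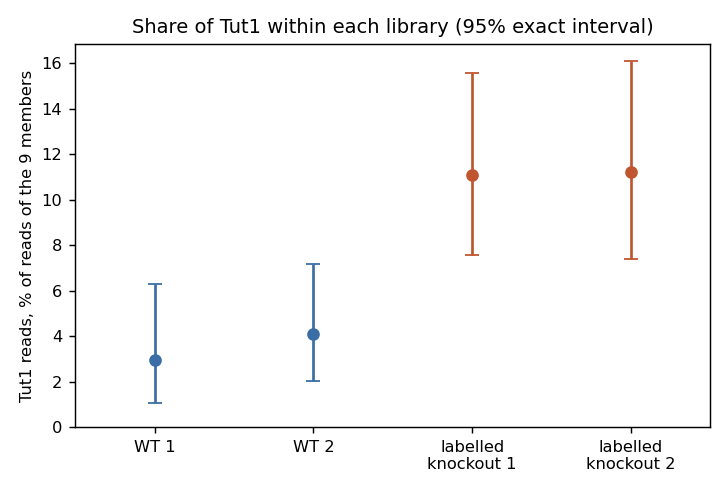
Share of the reads of the 9 members that were Tut1 (vertical axis, percent, starting at 0) in each library, with the exact 95% interval. WT libraries lie at 2.94% and 4.09%, and those labelled knockout at 11.1% and 11.2%.

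The order of levels was compared per kilobase of exon, and it depends on the length used. In WT, Tent2 was highest at 41.7 CPM per kb, Tut4 followed at 22.5 and Tent4b and Tut7 at 11.7 and 10.2. Tut1 came next at 6.78 CPM per kb, before Mtpap (4.72), Tent4a (3.68), Dis3l2 (1.77) and Lin28b (0.475). On this scale Tent4b and Tut7 did not differ beyond their spread, nor did neighbours from Tut1 down to Dis3l2. In the knockout-labelled libraries Tut1 was second at 22.7 CPM per kb, within the range of Tut4 at 22.4. Per kilobase of the longest transcript, Tut7 lay above Tent4b in WT, at 25.7 against 12.5, with no overlap, and Tut1 was at rank 3 in knockout-labelled libraries, at 29.8 against 32.1 for Tut4. Without length scaling, counting each long read as 1 molecule, it was at rank 4, at 81.9 CPM against 194 CPM for Tut4, with no overlap. In WT, Tut4 was then highest at 196 CPM, above Tent2 at 174 and Tut7 at 151 with no overlap, and 3 of the 9 genes keep their rank.

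**Figure D4:**
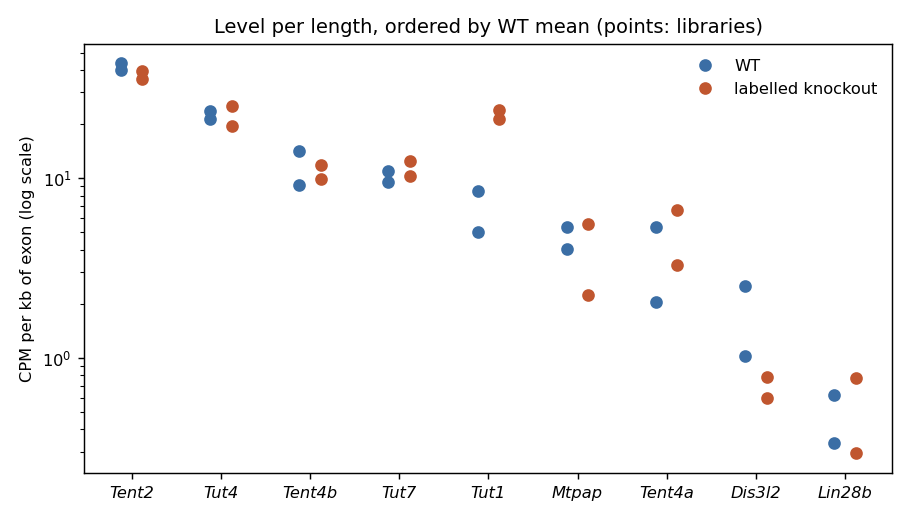
Level per kilobase of exon in CPM (vertical axis, log scale) in each library for the 9 members, ordered by the WT mean. Tut1 moves from 5.04 and 8.52 CPM per kb in WT to 21.4 and 24.1 in knockout-labelled libraries, the range of Tut4 on this scale.

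Genes beside Tut1 on chromosome 19, named after their values were seen, are given beside it. Eef1g, a translation elongation factor gene 831 bases away on the same strand, had 53 and 84 reads in WT and 64 and 53 in knockout-labelled libraries (log2 fold change -0.17, adjusted p = 0.836). For Mta2, a chromatin remodeller gene 1544 bases away, the difference was 0.09 on the log2 scale (adjusted p = 0.948). Of the 4 neighbours tested within 50000 bases, Ahnak (0.36, adjusted p = 0.852) and Ganab (-0.98, adjusted p = 0.160) did not pass either.

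The 3 genes whose profile over the 4 libraries was most like that of Tut1, by root mean square difference of mean-centred log2 CPM, were Clmp (0.0766), Ank3 (0.0896) and Rbfox1 (0.0904). Clmp encodes an adhesion protein, Ank3 the ankyrin of the axon initial segment and Rbfox1 a neuronal splicing regulator. Clmp had 14 and 21 reads in WT against 60 and 48, Ank3 21 and 38 against 92 and 68, and Rbfox1 5 and 9 against 21 and 21. They were picked from all 5878 tested genes on these same 4 libraries, so the likeness is a description. Shared regulation with Tut1 was not tested.

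Some cell type markers differed between the same libraries, with 11 of 38 tested called, 8 higher and 3 lower. Over all tested genes 2.06% were called, 1.4% higher and 0.663% lower. Markers named here other than Dcx and Mki67 were chosen after their values were seen. The summed level of 14 neural stem and progenitor markers was 3165 and 2846 CPM in WT against 1980 and 2119. Of its 12 tested markers 2 were called, both lower, Lhx2 (log2 fold change -1.49, adjusted p = 6.48e-07) and Mki67. The other 12 measured markers summed to 1475 and 1620 CPM in WT against 1374 and 1414. Below 0 without passing were Emx2 (-0.96, adjusted p = 0.0639), Sox2 (-0.60), Hes1 (-0.36), Sox9 (-0.30), Pax6 (-0.14) and Nes (-0.04). Fabp7 (0.66), Notch1 (0.17), Hmga2 (0.11) and Vim (0.06) were above 0 and did not pass either. The summed level of the 14 measured neuron and intermediate progenitor markers was 1569 and 1511 against 2466 and 2271, with 2 of 10 tested called, both higher. Dcx, a marker of young neurons, rose by 1.17 ± 0.24 on the log2 scale (adjusted p = 0.00461), and Mki67, a marker of dividing cells, fell by 0.74 (adjusted p = 0.0173). Microglia markers (10 genes) summed to 118 and 117 CPM in WT against 417 and 365, and all 4 of their tested members, Csf1r, Aif1, Cx3cr1 and Tyrobp, were called higher. Their defining gene P2ry12 had 4, 0, 1 and 3 reads in WT replicates 1 and 2 and knockout-labelled replicates 1 and 2. Summed levels of mesenchyme markers were 103 and 268 CPM against 476 and 320, of endothelium 96.9 and 106 against 181 and 170, of subpallium 15.1 and 75.4 against 191 and 97.3, and of red cells 800 and 1109 against 1262 and 868. In these lists 3 genes were called, Col1a2 of mesenchyme (2.12, adjusted p = 0.00742), Dlx1 of subpallium (2.59, adjusted p = 0.00494) and, lower, the globin Hbb-bh1 (-1.80, adjusted p = 0.0279), while another globin, Hba-x, was at 1.07 (adjusted p = 0.0563). The groups overlapped in the summed levels of red cells and surface ectoderm. Without Dlx1 they overlapped in subpallium too, at 15.1 and 53.1 CPM in WT against 101 and 48.6. Surface ectoderm markers were at 3.03 and 8.38 against 2.66 and 13.9 CPM. Their part in the Tut1 result was not tested. In bulk tissue, fewer cells of a type and less RNA per cell cannot be told apart.

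Genes of the pathways around the members did not pass the test. Over 8 lists with 113 tested genes besides the members, 0 were called in edgeR and in limma-voom. DESeq2 gave an adjusted p for 78 of them and called 0. With 2.06% of all tested genes called in edgeR and 8 in all in DESeq2, a count of 0 is near the background. An unadjusted p below 0.05 was found for 17 (15.04%), against 14.2% of all tested genes. Their median log2 fold change was -0.02, against -0.01 over all tested genes, and the smallest adjusted p was 0.121. The plot of list differences shows all of them. List medians moved with single libraries. The median of the 3 other nucleotidyltransferases ran from -0.87 without knockout-labelled replicate 1 to 0.33 without knockout-labelled replicate 2, and that of mitochondrial RNA maintenance went from 0.11 to -0.16 without WT replicate 2.

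**Figure D5:**
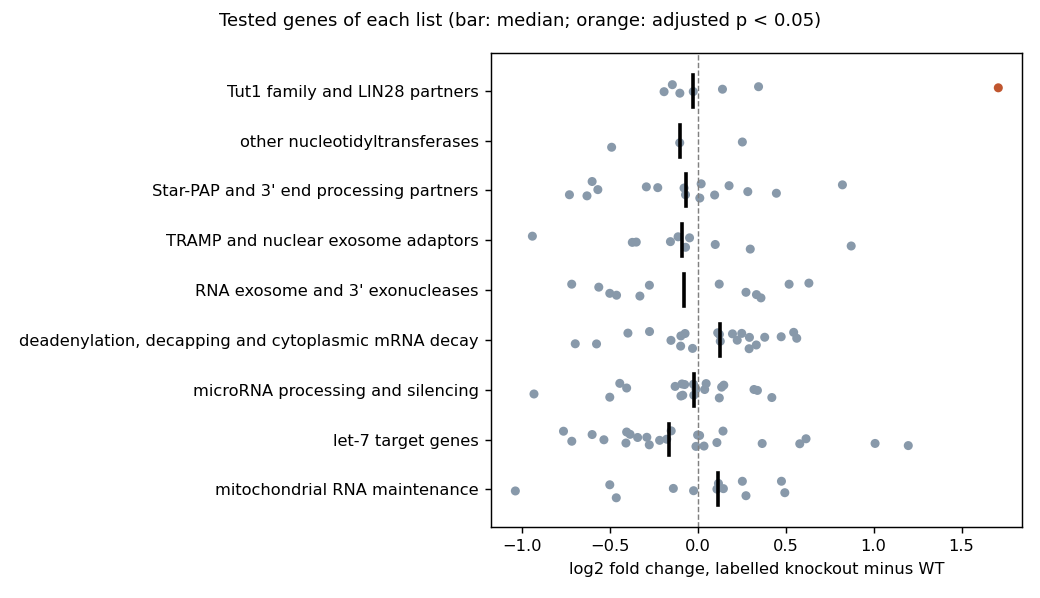
Log2 fold change, labelled knockout minus WT (horizontal axis), of each tested gene in the member list and the 8 pathway lists, with the median of each list as a bar. Tut1, at 1.71, is the gene past the threshold, and with all 4 libraries list medians lie between -0.16 and 0.13.

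Star-PAP and 3′ end processing partners had 7 of 15 tested genes above 0. Cpsf6, a cleavage factor subunit, had 88 and 107 reads in WT against 74 and 48 (log2 fold change -0.63 ± 0.21, adjusted p = 0.121), and Cpsf1, a subunit of the complex that reads the poly(A) signal, had 18 and 23 against 38 and 32 (0.82 ± 0.31, adjusted p = 0.174). Among the 3 tested members of the other nucleotidyltransferases, the canonical poly(A) polymerase Papola had -0.49 (adjusted p = 0.242) and the tRNA CCA-adding enzyme Trnt1 had 0.25 (adjusted p = 0.760). The TRAMP and nuclear exosome adaptors had 3 of 10 above 0, with Zcchc8, a nuclear exosome targeting subunit, at 0.87 and Mphosph6 at -0.94.

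The RNA exosome and 3′ exonucleases split evenly, 6 above and 6 below 0. Exosc1, an exosome subunit, was at -0.72 and Angel2, listed also with mitochondrial RNA maintenance, at -0.50 on the log2 scale. Deadenylation, decapping and mRNA decay had 13 of 22 above 0, and the named members were Cnot10 (-0.70), of the deadenylase complex, and Xrn2 (0.56), a 5′ to 3′ exonuclease. Mitochondrial RNA maintenance had 7 of 12 above 0 and a lowest value of -1.04 in Fastkd3.

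The microRNA and let-7 genes bear on the LIN28 branch. Of 20 microRNA processing and silencing genes, 8 were above 0. Ago2, the slicing Argonaute, had 31 and 39 reads in WT against 14 and 21 (-0.93 ± 0.34, adjusted p = 0.151). Ran, the GTPase cofactor of the exportin that carries precursors, was at -0.44 (adjusted p = 0.194). Of 24 let-7 target genes, 9 were above 0, against 48.4% of all tested genes, and the median was -0.16. Cdc34, a ubiquitin-conjugating enzyme, was at 1.01 (adjusted p = 0.202) and E2f6, a cell cycle repressor, at -0.76 (adjusted p = 0.226). The median of these targets was -0.10 with total counts only and -0.03 without knockout-labelled replicate 1.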

How the data were processed

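Dorsal and medial palliums of E11.5 mouse embryos were measured in 4 libraries, 2 a group, with total counts of 305642 to 397150. These totals are a small part of the sequenced reads listed by the study for the same libraries, and the reason is not given in the sources used here. The deposited table holds raw read counts per gene, with no normalization. Per the study's methods, the authors mapped Nanopore reads on Ensembl mouse transcripts (minimap2) and passed the alignments to FLAIR, on GRCm38. How isoforms were summed per gene and reads mapping to several genes were treated is not given in the sources used here. Of 16449 genes, 1366 had no read in any library.

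Counts were fitted with edgeR 4.0.16 in R 4.3.3 (filterByExpr minimum 10 and total 15, TMM, glmQLFTest, two-sided, Benjamini-Hochberg over 5878 genes, no covariate), and the procedure was tested on simulated data. SE is the log2 fold change over the root of the F statistic. Log2 CPM for profiles used a prior count of 2. Groups came from the sample labels. Positions and exon lengths came from GENCODE M21 on GRCm38 and microRNA sequences from RefSeq. Alternatives were other scalings and filters, DESeq2 1.42.0, limma-voom (limma 3.58.1), the replicate number as a block and each library left out.

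Members, gene lists and tests were chosen with earlier results of these data known. Named were all members, the 2 genes of smallest p per pathway list, the 3 genes most like Tut1, and Dcx and Mki67 beside Tut1. Other named genes, the neighbours of Tut1, overlapping genes and the other cell type markers, were chosen after their values were seen.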

Additional observations from a re-analysis of the deposited data

How the results depend on the processing

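The counted reads, a small part of those sequenced, limit the members with few of them, and Lin28b, Dis3l2, Mtpap and Tent4a had at most 17 reads in any library. The 121 genes called became 76 (51 higher) with the replicate block, 8 in DESeq2 and 3 to 108 with a library left out, the lowest being 3 and 35 when knockout-labelled replicate 1 or 2 was dropped and 75 when WT replicate 1 was. The members called, 1 in the fit as reported, ranged from 0 to 1 with a library left out and were 0 in DESeq2, which gave an adjusted p for 5 of the 7. The cause was not tested.

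DESeq2 was run first with its independent filter tuned to the threshold of 0.05, which gave 12 genes and 0 members and no adjusted p for Tut1. That form was then exchanged, with its values already known, for the default filter that the fixed plan names, which gave the 8 genes and, for Tut1, a log2 fold change of 1.74 with an adjusted p of 0.440. With a library left out, Tut1 ran from 1.39 to 2.13 on the log2 scale. With total counts only, 105 of 129 genes called were higher (81.4%), against 82 of 121 (67.8%).

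Members past no threshold changed sign in some alternatives. Tut4 was 0.037 with total counts only. With a library left out, Tut4 ran from -0.20 to 0.16, Tent4a from -0.19 to 1.19, Tent4b from -0.37 to 0.24 and Mtpap from -1.05 to 0.25. Tent2 and Tut7 kept their sign throughout. Without length scaling, 3 of 9 genes keep their rank. The 2 groups share replicate numbers, but same-numbered libraries did not deviate together (correlation -0.0614), and nothing in the labels ties a number to a litter or day. With the replicate block, Tut1 had an adjusted p of 0.0244 and 0 pathway genes were called.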
